A study of Saccharomyces cerevisiae with 4 samples.

Results

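Budding yeast keeps separate genes for the aerobic and the hypoxic form of several proteins, and 10 such genes and their regulators are described here across yeast cultures with and without TUDCA (tauroursodeoxycholic acid), a bile acid joined to taurine. They are 10 of the 7127 features in the count table, and all 10 passed the filter on low counts. The hypoxic or hypoxia-induced genes are ANB1, HEM13, COX5B, AAC3 and CYC7, the aerobic forms are CYC1, COX5A and AAC2, and the regulators are ROX1 and HAP1. The genes were chosen by locus name for these known roles, with the TUDCA contrast of the same libraries already seen. Values of that contrast are therefore given for them as a description, and counts of members past a threshold are set beside the share of all genes with nothing read from them.

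The strain was BY4742, a haploid of genotype MATα his3Δ1 leu2Δ0 lys2Δ0 ura3Δ0, grown exponentially in the rich glucose medium YPD. Cultures received 5 mM TUDCA for 2 h (TUDCA, 2 libraries) or none (Ctrl, 2 libraries). Poly(A)-selected RNA was sequenced, so each mean below is over n = 2 libraries and each ± is an SD. The labels do not say that replicates were separate cultures, so the spread between them may be technical. No label mentions a change of oxygen or haem supply. In the RefSeq R64 genome of the parent strain S288C, a Ty1 retrotransposon (chromosome XII, 650824 to 656743) covers the last 100 bases of annotated HAP1. This insertion is known to weaken Hap1 in strains derived from S288C.

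Oxygen controls these genes in yeast largely through haem, whose synthesis needs oxygen. With haem present, the activator Hap1 turns on aerobic genes and the gene of the repressor Rox1, and Rox1 together with the corepressor Tup1-Cyc8 keeps hypoxic genes low. The Hap2/3/4/5 complex activates respiratory genes and is set by the carbon source through Hap4.

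Libraries held 74080860 to 97133389 assigned counts. One library, Ctrl replicate 2, was unlike the rest. Over 6005 genes, log2 ratios had an SD of 0.22 to 0.28 between it and any other library and of 0.12 to 0.14 between the others. LEU2 and URA3, deleted in this strain, were at 0 counts in every library, which allows up to 3 counts, and LYS2 had at most 2. HIS3, which the his3Δ1 allele is known to remove only in part, had 11172 to 17246. Of all 6420 genes tested, 2 were called higher and 4 lower in TUDCA by edgeR (quasi-likelihood F test, Benjamini-Hochberg adjusted p under 0.05).

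Stretches upstream of the start codon are shown for the Rox1-type letters of ANB1, HEM13, COX5B, AAC3 and HAP1 and for the Hap1-type letters of CYC1. All 500 bases before the start codon of each gene were searched on both strands for ATTGTT (the core of the Rox1 site), for ATTGTTCTC (the core with 3 further bases of the known site), and for a Hap1-type pair of CGG triplets with 6 bases between them. All 4 cores of ANB1 are shown, for HEM13 and HAP1 the stretch with ATTGTTCTC, for COX5B the core read on the strand of the gene, and for AAC3 its single core. A further core of HEM13, 1 of HAP1, 2 of COX5B and those of ROX1 and COX5A are not shown. Capitals mark the core, or for CYC1 the whole Hap1-type match. Sequences are from the RefSeq R64 genome and read 5′ to 3′ on the strand of the gene.
ANB1 distal, chrX:525642-525708, minus strand: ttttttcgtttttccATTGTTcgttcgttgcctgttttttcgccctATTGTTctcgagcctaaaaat
ANB1 proximal, chrX:525554-525610, minus strand: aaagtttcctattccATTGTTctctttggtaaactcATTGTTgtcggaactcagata
HEM13, chrIV:546445-546480, plus strand: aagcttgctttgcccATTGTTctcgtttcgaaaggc
COX5B, chrIX:154983-155018, plus strand: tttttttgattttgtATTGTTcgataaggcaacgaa
AAC3, chrII:415774-415809, plus strand: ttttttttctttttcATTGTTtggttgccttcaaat
HAP1, chrXII:646152-646187, plus strand: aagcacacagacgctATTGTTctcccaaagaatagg
CYC1, chrX:525960-526024, plus strand: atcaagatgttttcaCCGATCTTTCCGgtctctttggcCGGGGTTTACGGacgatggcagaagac

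ANB1 had the most Rox1-type matches of the 10 genes. Its window held the core 4 times, starting 312, 281, 214 and 193 bases before the start codon, and 2 of these ran on into ATTGTTCTC. Of 6000 promoters of protein-coding genes, 1 had ATTGTTCTC more than once, which is that of ANB1. These letters were added after the core had been searched, so this is a description only. The longer letters were found at least once in 1.13% of promoters and in 3 of the 10 members (ANB1, HEM13 and HAP1). The core alone is common, in 48.9% of promoters and in 7 of the 10 members. COX5B had it 3 times, HEM13, ROX1 and HAP1 2 times, COX5A and AAC3 once, and CYC1, CYC7 and AAC2 had no match. At least 3 cores were found in 2.98% of promoters.

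The Hap1-type pair was found upstream of CYC1, 2 times, and of no other member, against 4.47% of all promoters. The windows of 7 members held CCAAT, the letters recognised by the Hap2/3/4/5 complex, and those of 9 held TCGTT, part of the anaerobic AR1 element. Both are common, in 62.4% and 63.3% of all promoters. ATTGTTCTC contains the core, a TCGTT match shares a base with a core upstream of ANB1 and bases with ATTGTTCTC upstream of HEM13, and a CCAAT match shares bases with a core upstream of ROX1. A match describes letters in a window and not a bound site. ANB1 and CYC1 are neighbours transcribed away from each other, with 953 bases (chromosome X, 525382 to 526334) and no other feature of the count table between them.

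**Figure D1:**
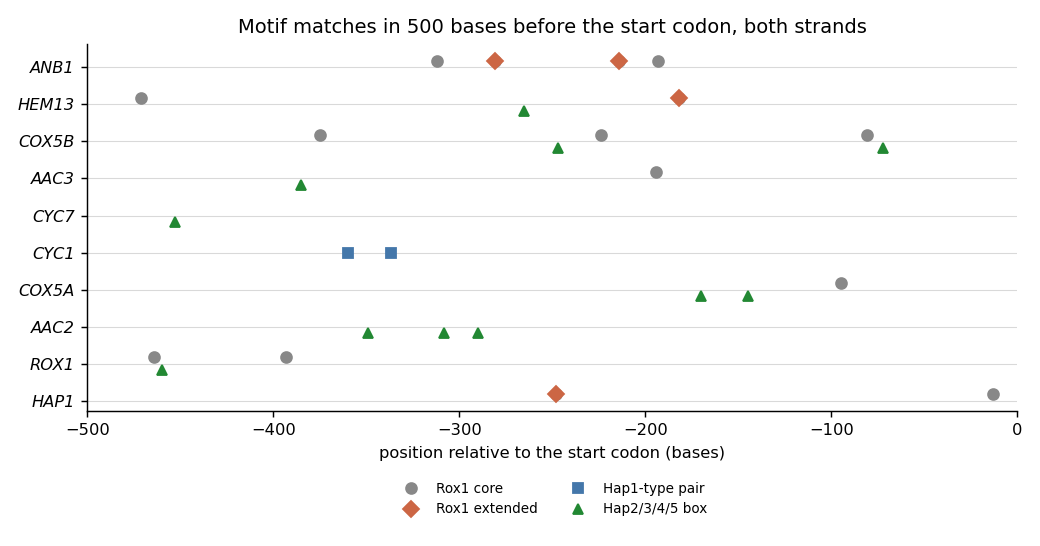
Matches to 4 sets of letters in the 500 bases before the start codon of the 10 members, on both strands; the x axis is the distance to the start codon in bases and each row is a gene. ANB1 has 4 Rox1 cores, 2 of them of the extended form drawn as diamonds, and the Hap1-type pairs (squares) lie upstream of CYC1.

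Of the 5 hypoxic or hypoxia-induced genes, 4 were lower in each TUDCA library than in either Ctrl library (ANB1, HEM13, COX5B and AAC3), and in CYC7 the groups overlapped. Among all genes tested, 23.9% lay wholly below Ctrl in this way. The 3 aerobic forms were higher in each TUDCA library than in either Ctrl library, as were 23.7% of all genes. So was the regulator ROX1, at a log2 fold change of 0.024, and in HAP1 the groups overlapped. By edgeR's adjusted threshold, 1 of the 10 members was called (ANB1, lower), where 0.0935% of all genes were called, 0.0623% lower and 0.0312% higher. DESeq2 also called AAC3 (2 members lower, 0.44% of all genes), as did edgeR without Ctrl replicate 2 (0.295% of all genes), and edgeR without Ctrl replicate 1 called ANB1, AAC3, HEM13 and COX5B (13.4% of all genes). Because the genes were picked with this contrast known, nothing is read from these counts. In bulk RNA, fewer cells with a transcript and less of it per cell cannot be told apart.

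ANB1 (YJR047C, chromosome X, 524908 to 525381, minus strand) encodes the hypoxic form of translation factor eIF5A. Its level was 87.0 CPM (counts scaled by library total and TMM factor) in Ctrl replicate 1, 101 in Ctrl replicate 2, 43.3 in TUDCA replicate 1 and 40.1 in TUDCA replicate 2. Both Ctrl libraries were high and both TUDCA libraries low, with a gap wider than the spread within either group. The log2 fold change (TUDCA minus Ctrl) was -1.17 (SE 0.096), a level 2.25-fold higher in Ctrl, and 3 of the other 6419 genes tested had a lower value. It stayed between -1.26 and -1.06 when each library was left out in turn. Counts behind these values were 3302 to 9517 per library.

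HYP2, the aerobic partner of ANB1, is listed at 0 in every library. Its whole feature lies inside YEL034C-A on the opposite strand, so the balance of the 2 eIF5A genes was not measured. The coding sequences of ANB1 and HYP2 are identical at 90.9% of 474 bases, with a longest shared run of 43 bases. How reads shared between the copies were assigned is not given in the sources used here.

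HEM13 (YDR044W, chromosome IV, 546642 to 547628, plus strand) encodes coproporphyrinogen oxidase, an oxygen-requiring step of haem synthesis, and is induced when haem is low. It was at 192 and 202 CPM in Ctrl replicates 1 and 2 and at 157 and 167 CPM in TUDCA replicates 1 and 2. The groups did not overlap, and the gap was wider than the spread within either. Its log2 fold change was -0.28 (SE 0.082), with a 95% interval from -0.47 to -0.087.

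COX5B (YIL111W, chromosome IX, exon 2 at 155311 to 155765, plus strand) encodes the hypoxic form of subunit 5 of cytochrome c oxidase. The counted feature holds that exon and leaves out a first exon of 1 coding base. COX5B was at 402 and 408 CPM in Ctrl replicates 1 and 2 and at 338 and 313 CPM in TUDCA replicates 1 and 2. The Ctrl libraries were close together and both TUDCA libraries lay lower. This gave a log2 fold change of -0.32 (SE 0.089, 95% interval -0.52 to -0.11).

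AAC3 (YBR085W, chromosome II, 415983 to 416906, plus strand) encodes the anaerobic ADP/ATP carrier of the mitochondrial inner membrane. It had the lowest level per length of the 10, and was at 21.3 and 20.7 CPM in Ctrl replicates 1 and 2 and 15.1 and 14.9 CPM in TUDCA replicates 1 and 2. Replicates were close in both groups and the TUDCA libraries lay lower. On the log2 scale the fold change was -0.48 (SE 0.10, 95% interval -0.72 to -0.25), and 119 of the 6420 genes had a lower value.

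CYC7 (YEL039C, chromosome V, 79636 to 79977, minus strand) encodes iso-2-cytochrome c, the hypoxic form of the electron carrier. Its level was 172 CPM in Ctrl replicate 1, 119 in Ctrl replicate 2, 152 in TUDCA replicate 1 and 109 in TUDCA replicate 2. The groups overlapped, and both replicate 2 libraries were low. On the log2 scale Ctrl replicate 2 lay at -0.54 relative to Ctrl replicate 1, and TUDCA replicate 2 at -0.48 relative to TUDCA replicate 1. The log2 fold change of -0.16 (SE 0.20) has no settled direction, since it was 0.15 without Ctrl replicate 1, 0.064 without TUDCA replicate 2, -0.40 without Ctrl replicate 2 and -0.41 without TUDCA replicate 1.

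**Figure D2:**
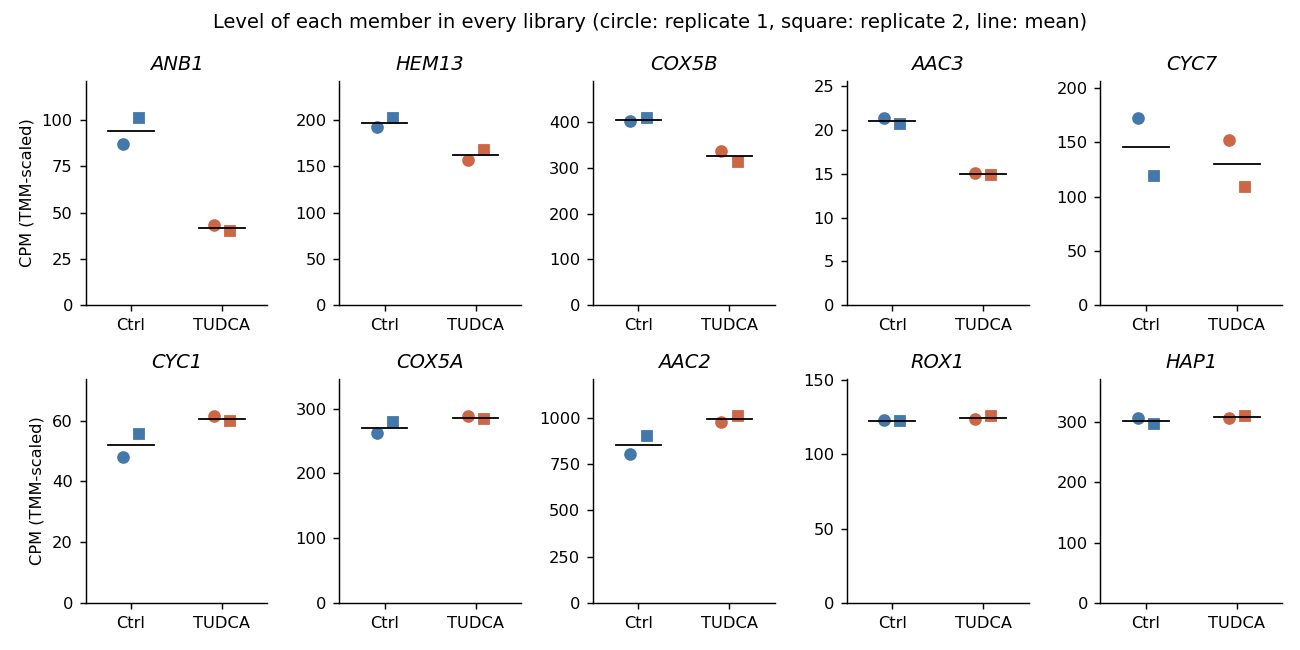
Level of each member in the 4 libraries, in TMM-scaled CPM on axes that start at 0; circles are replicate 1, squares replicate 2 and lines group means. ANB1 goes from 93.9 to 41.7 CPM on average, HEM13, COX5B and AAC3 lie lower in both TUDCA libraries, and CYC7 differs more between replicate numbers than between groups.

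Among the aerobic forms, CYC1 (YJR048W, chromosome X, 526335 to 526664, plus strand) encodes iso-1-cytochrome c, known as the main cytochrome c of aerobic cells. In each library here, CYC1 had fewer counts per length than CYC7. It was at 48.2 and 55.7 CPM in Ctrl replicates 1 and 2 and at 61.5 and 59.9 CPM in TUDCA replicates 1 and 2. The gap between the groups was narrower than the distance between the Ctrl libraries. A log2 fold change of 0.22 (SE 0.090) resulted, which was 0.33 without Ctrl replicate 2 and 0.14 without Ctrl replicate 1. CYC1 and its divergent neighbour ANB1 thus lay on opposite sides of their Ctrl levels.

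AAC2 (YBL030C, PET9 in RefSeq, chromosome II, 163041 to 163997, minus strand) encodes the major ADP/ATP carrier. It had the most counts of the 10, and was at 803 and 899 CPM in Ctrl replicates 1 and 2 and at 976 and 1008 CPM in TUDCA replicates 1 and 2. The spread between the Ctrl libraries exceeded the gap between the groups. Its log2 fold change was 0.22 (SE 0.11, 95% interval -0.024 to 0.47).

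COX5A (YNL052W, chromosome XIV, 531725 to 532186, plus strand) encodes the aerobic form of cytochrome c oxidase subunit 5. Its level was 262 and 279 CPM in Ctrl replicates 1 and 2 and 288 and 283 CPM in TUDCA replicates 1 and 2. The gap between the groups was narrower than the distance between the Ctrl libraries, and the log2 fold change was 0.080 (SE 0.084, 95% interval -0.12 to 0.27). It ranged from 0.046 without Ctrl replicate 1 to 0.13 without Ctrl replicate 2.

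The mRNAs of both regulators differed little between libraries. ROX1 (YPR065W, chromosome XVI, 679693 to 680799, plus strand), the gene of the hypoxic repressor, was at 123 and 122 CPM in Ctrl replicates 1 and 2 and at 124 and 126 CPM in TUDCA replicates 1 and 2. Its log2 fold change was 0.024 (SE 0.075, 95% interval -0.15 to 0.20), and -0.020 under upper-quartile scaling. HAP1 (YLR256W, chromosome XII, 646415 to 650923, plus strand), the gene of the haem-responsive activator, was at 306 and 296 CPM in Ctrl replicates 1 and 2 and at 306 and 310 CPM in TUDCA replicates 1 and 2. Its log2 fold change was 0.031 (SE 0.082, 95% interval -0.16 to 0.22), and -0.012 under upper-quartile scaling. These are mRNA levels and do not measure the activity of either protein.

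**Figure D3:**
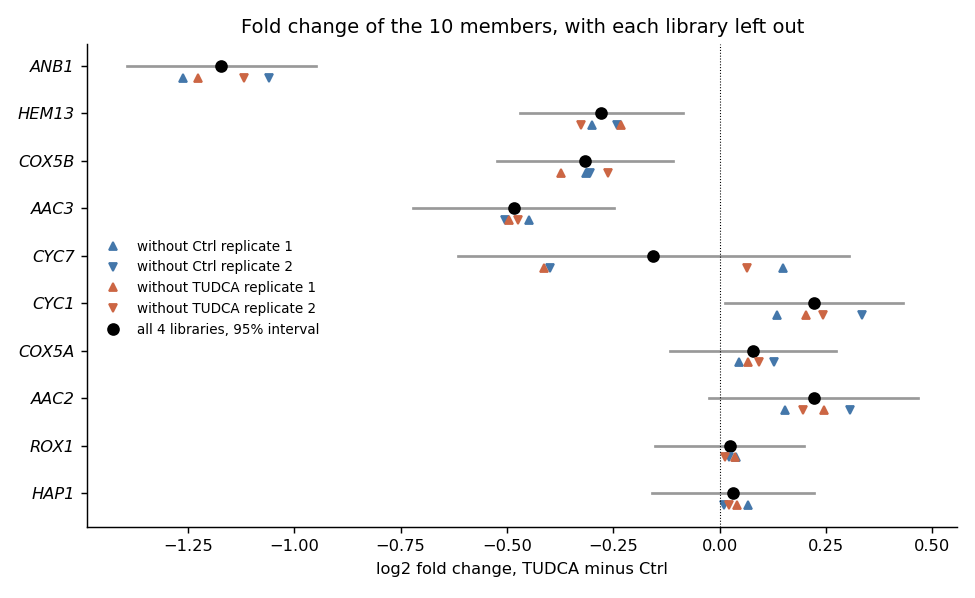
Log2 fold change (x axis, TUDCA minus Ctrl) of the 10 members, with 95% intervals from edgeR's fit as grey bars and the value without each library as triangles. ANB1 lies at -1.17, AAC3, COX5B and HEM13 between -0.48 and -0.28, the aerobic forms between 0.080 and 0.22, and CYC7 has leave-one-out values on both sides of 0.

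Per length, the hypoxic form did not always have fewer counts than the aerobic form in Ctrl. The features hold coding bases only and some are short, such as CYC1 with 330 bases. Comparisons between genes are therefore rough. COX5B was at 890 ± 9.14 CPM per kilobase and COX5A at 585 ± 26.7, and the order was the same in TUDCA with 715 ± 38.7 and 619 ± 7.80. CYC7 was at 425 ± 110 CPM per kilobase and CYC1 at 158 ± 16.1 in Ctrl. AAC3, by contrast, was at 22.7 ± 0.516 CPM per kilobase against 889 ± 70.6 for AAC2. ANB1 (198 ± 20.6) and HEM13 (199 ± 6.85) were at levels within their spread of each other in Ctrl, and in TUDCA ANB1 was at 88.0 ± 4.64 and HEM13 at 164 ± 7.48. The regulators ROX1 (111 ± 0.277 CPM per kilobase) and HAP1 (66.8 ± 1.5) lay above AAC3 and below the other members in Ctrl.

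The share of the hypoxic form within a pair, per length, does not depend on library scaling. COX5B made up 60.9% and 59.7% of the COX5 pair in Ctrl replicates 1 and 2 and 54.3% and 52.9% in TUDCA replicates 1 and 2. These shares did not overlap between the groups, and the log2 ratio of COX5B to COX5A differed by -0.40 (TUDCA minus Ctrl), with SDs of 0.051 in Ctrl and 0.060 in TUDCA. AAC3 made up 2.68% and 2.32% of its pair with AAC2 in Ctrl replicates 1 and 2 and 1.58% and 1.51% in TUDCA replicates 1 and 2. These did not overlap either, and the log2 ratio of AAC3 to AAC2 differed by -0.71, with SDs of 0.15 in Ctrl and 0.048 in TUDCA. CYC7 made up 77.5% and 67.2% of the cytochrome c pair in Ctrl replicates 1 and 2 and 70.4% and 63.7% in TUDCA replicates 1 and 2. Those values overlapped, and the difference in log2 ratio of -0.38 was smaller than the SD of 0.53 in Ctrl. It was -0.0050 when Ctrl replicate 1 was left out, -0.75 when Ctrl replicate 2 was, -0.16 without TUDCA replicate 2 and -0.60 without TUDCA replicate 1.

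Within pairs, coding identity was 79.1% for AAC2 and AAC3, 77.0% for CYC1 and CYC7 and 67.5% for COX5A and COX5B. Their longest shared runs were 20, 35 and 12 bases. No other feature of the count table overlapped any of the 10 members.

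**Figure D4:**
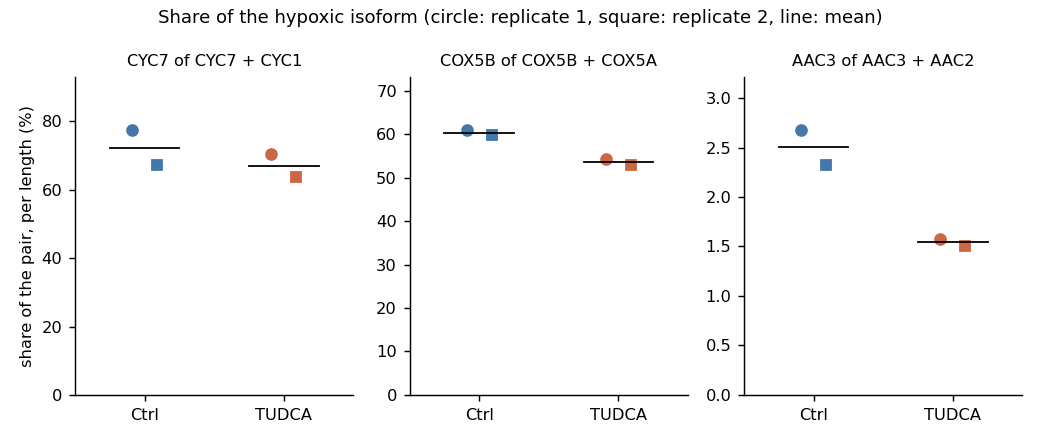
Share of the hypoxic form within each pair (y axis, percent of counts per length, from 0) in the 4 libraries; circles are replicate 1, squares replicate 2 and lines means. The COX5B and AAC3 shares lie lower in both TUDCA libraries, and the CYC7 shares overlap.

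Other genes of oxygen and haem regulation were taken as 5 lists by known role, 54 genes of which 53 were tested. edgeR called 0 of the 53 in either direction after adjustment over all genes, while 10 had an unadjusted p under 0.05 (8.32% of all genes did). limma-voom called 0. DESeq2 called 2 higher and 3 lower, where it called 0.455% of all genes higher and 0.44% lower. Calls with 1 library left out are given below for named genes only, and other list genes, HEM14 among them, were also called. In those fits 1 group holds a single library, which is assumed to vary like the other group. Such fits therefore add little about a gene. They called 17.6% of all genes higher and 13.4% lower without Ctrl replicate 1, and 0.372% and 0.295% without Ctrl replicate 2. Of these genes, the TIR and DAN genes, OLE1, UPC2 and SUT1 had been seen in earlier results of these data.

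Of 12 other hypoxic genes, edgeR called 0, and 6 were under 0.05 before adjustment, as were 8.32% of all genes. Their median log2 fold change was -0.22, against -0.0037 over all genes, and -0.17 without Ctrl replicate 2. The TIR and DAN genes and OLE1 had been seen in earlier results, so nothing is read from the median or counts. The TUDCA libraries lay wholly below the Ctrl libraries in 8 of the 12, as did 23.9% of all genes. TIR1, which encodes a cold- and anaerobiosis-induced cell wall mannoprotein, was at 129 and 208 CPM in Ctrl replicates 1 and 2 and at 65.4 and 58.7 CPM in TUDCA replicates 1 and 2 (log2 fold change -1.44, edgeR adjusted p = 0.0796). Its Ctrl libraries differed widely, and its log2 fold change was -1.73 without Ctrl replicate 1, -1.05 without Ctrl replicate 2, -1.52 without TUDCA replicate 1 and -1.36 without TUDCA replicate 2. edgeR called it in each of these fits, which called 0.0772% of all genes lower without TUDCA replicate 1 and 0.155% without TUDCA replicate 2, and without the filter on low counts (edgeR adjusted p = 0.0484, 0.0729% of all genes called lower). OLE1, the gene of the oxygen-requiring Δ9 fatty acid desaturase, had a log2 fold change of -0.49 (edgeR adjusted p = 0.258), and TIR3, another mannoprotein gene, -0.40 (edgeR adjusted p = 0.211). DESeq2 called TIR1, OLE1 and TIR3 lower. edgeR also called OLE1 without Ctrl replicate 1 (-0.58), and TIR3 without Ctrl replicate 1 (-0.39) or Ctrl replicate 2 (-0.40). Not all genes of the list lay lower, since 3 of the 12 had fitted values above 0. Among these 3, TIR2 was at 14.2 and 16.6 CPM in Ctrl replicates 1 and 2. In TUDCA replicates 1 and 2 it was at 18.6 and 18.1 CPM (log2 fold change 0.25, edgeR adjusted p = 0.544), wholly above Ctrl.

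Of 13 regulators other than ROX1 and HAP1, edgeR called 0, and the median was 0.085. HAP4, the regulatory subunit of the Hap2/3/4/5 complex, was at 217 and 181 CPM in Ctrl replicates 1 and 2 and at 304 and 276 CPM in TUDCA replicates 1 and 2. Its groups did not overlap (log2 fold change 0.55, SE 0.11, edgeR adjusted p = 0.250), and DESeq2 called it. edgeR called it when Ctrl replicate 1 (0.69, 17.6% of all genes called higher) or Ctrl replicate 2 (0.42, 0.372%) was left out, and not without either TUDCA library. TUP1 and CYC8, which encode the corepressor that Rox1 recruits, had log2 fold changes of 0.25 (edgeR adjusted p = 0.544) and 0.17 (edgeR adjusted p = 0.544), and TUP1 was called without Ctrl replicate 1 (0.32). The sterol and anaerobic regulator UPC2 was at 0.085 (edgeR adjusted p = 0.650), and the repressor gene MOT3 at -0.027 (edgeR adjusted p = 0.918).

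Genes of haem synthesis beyond HEM13 had small fold changes. Of 8 genes of haem synthesis and breakdown, edgeR, DESeq2 and limma-voom called 0, 0 had an unadjusted p under 0.05, and values ran from -0.11 to 0.12 with a median of 0.038. HEM1, which encodes the first enzyme of the pathway, was at -0.11 (SE 0.084, edgeR adjusted p = 0.613). HEM2 and HEM3, which encode the next enzymes, were at 0.11 (edgeR adjusted p = 0.592) and 0.12 (edgeR adjusted p = 0.556).

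Of 8 other aerobic, haem-activated genes, edgeR called 0, 2 had an unadjusted p under 0.05 (8.32% of all genes did), and the median was 0.071. YHB1, which encodes the nitric oxide-detoxifying flavohaemoglobin, had 0.38 (edgeR adjusted p = 0.406), the catalase gene CTT1 0.31 (edgeR adjusted p = 0.544) and the cytochrome c1 gene CYT1 0.20 (edgeR adjusted p = 0.544). In these 3 of the 8 the TUDCA libraries lay wholly above the Ctrl libraries, as in 23.7% of all genes, and in the other 5 the groups overlapped. DESeq2 called YHB1. edgeR called all 3 without Ctrl replicate 1 (0.32 for YHB1, 0.32 for CTT1 and 0.27 for CYT1) and YHB1 without Ctrl replicate 2 (0.46).

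Of 12 tested genes whose products work with the member proteins, edgeR, DESeq2 and limma-voom called 0, 0 had an unadjusted p under 0.05, and the median was 0.027. LIA1, which encodes an enzyme that matures eIF5A, had -0.29 (edgeR adjusted p = 0.544), and its groups overlapped. Its value was -0.072 without Ctrl replicate 2, -0.19 without TUDCA replicate 1, -0.41 without TUDCA replicate 2, and -0.47 without Ctrl replicate 1, where edgeR called it along with 13.4% of all genes. A feature on the opposite strand overlapped 19.8% of LIA1. CYC3, which encodes the enzyme that attaches haem to cytochrome c, had 0.16 (edgeR adjusted p = 0.551) and 0.040 without TUDCA replicate 1, and COX12, another cytochrome c oxidase subunit gene, 0.11 (edgeR adjusted p = 0.590). AAC1, the third ADP/ATP carrier gene, was at 0.052 (edgeR adjusted p = 0.798), and its sign flipped without TUDCA replicate 1 (-0.037).

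**Figure D5:**
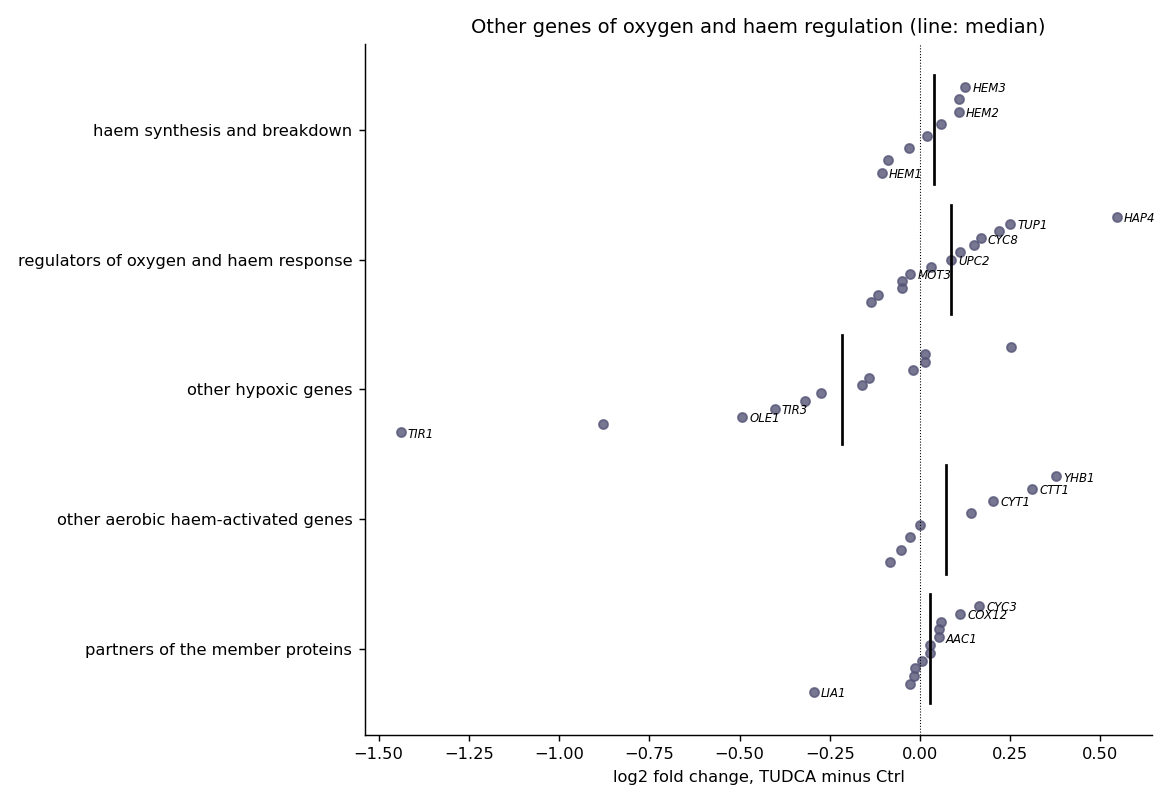
Log2 fold change (x axis, TUDCA minus Ctrl) of the 53 tested genes of the 5 lists. Each point is a gene and black lines are list medians. The genes described in the text are named, apart from TIR2. The hypoxic list has its median at -0.22 and TIR1 at -1.44, and HAP4 lies highest at 0.55.

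The profile of ANB1 over the 4 libraries was compared with 5376 genes of at least 10 CPM on average, by Euclidean distance between log2 levels centred on each gene's mean. The nearest were SAG1 (distance 0.22), AGA1 (0.25), MF(ALPHA)2 (0.33), FUS1 (0.34) and TIR1 (0.41). SAG1 was at 169 and 181 CPM in Ctrl replicates 1 and 2 and at 85.5 and 89.2 CPM in TUDCA replicates 1 and 2. Of these 5, TIR1 is a gene of the hypoxic list, and the others are known as mating genes. With 4 libraries, such a distance describes little more than the size of the difference between the groups.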

How the data were processed

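The authors deposited raw counts per gene for 4 libraries, and signal values made by dividing them by a size factor (checked: the ratio of both tables is constant within a library). Per the submitters' processing notes, STAR 2.5.4b, featureCounts 1.6.0, DESeq2 1.26.0 and build R64 were used; strand and multimapping settings are not given in the sources used here. Of 5989 features matched by locus tag, 5980 had the start and end of RefSeq R64.

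Groups follow the labels. Counts were analysed with edgeR 4.0.16 in R 4.3.3: filterByExpr at a minimum count of 10 kept 6420 of 7127 features, TMM scaled the libraries, and the quasi-likelihood F test was adjusted by Benjamini-Hochberg at 0.05. The test was checked on simulated data. SEs are the log2 fold change over the root of F. Alternatives were DESeq2 1.42.0, limma-voom (limma 3.58.1), other scalings and filters, a replicate block and each library left out. Sequences were read from RefSeq R64 with Biopython 1.88.

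Members, lists and tests were chosen with earlier results of these data known. ATTGTTCTC was added after the core had been searched. Named in the text are all members, in each list the called genes or else the 3 with the smallest p, a fixed set (HYP2, HAP4, UPC2, HEM1, MOT3 and AAC1) and the 5 genes nearest to ANB1. TIR2 is named in addition, as a TIR gene that lay higher in TUDCA. Limits on 0 counts cover counting error only.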

Additional observations from a re-analysis of the deposited data

How the results depend on the processing

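The log2 fold change of ANB1 was -1.26 to -1.06 over the alternatives run. Over all genes, 2 were called higher and 4 lower. DESeq2 called 30 and 29 and upper-quartile scaling 1 higher. Leaving out 1 library gave 2 to 1139 higher and 5 to 871 lower, with the most calls when Ctrl replicate 1 was left out; a group left with 1 library is assumed to vary like the other. Members called lower numbered 1, but 2 in DESeq2 (with AAC3) and 1 to 4 with 1 library left out; at most HEM13, COX5B and AAC3 joined ANB1, without Ctrl replicate 1, where 13.4% of genes were called lower. In the 5 lists 0 genes were called, but DESeq2 called 2 higher and 3 lower, no filter on low counts gave 1 lower, and leaving out 1 library gave 0 to 9 higher and 1 to 7 lower. The cause of these differences was not tested.

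With the replicate block, 191 genes were called higher and 162 lower, among them 3 members lower (ANB1, AAC3 and COX5B; 2.52% of all genes) and, in the lists, 3 higher and 5 lower, LIA1 among them. The labels give the libraries only a shared number. Deviations of same-numbered libraries correlated at r = 0.35 across 5386 genes, in a design with 2 pairs, and the block leaves 1 residual degree of freedom.

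MOT3 reversed to 0.084 without Ctrl replicate 2 and to 0.024 without TUDCA replicate 1 (range -0.11 to 0.084), and AAC1 to -0.037 without TUDCA replicate 1 (range -0.037 to 0.14). With 1 library left out, log2 ratios ranged from -0.44 to -0.35 for COX5B to COX5A, from -0.81 to -0.60 for AAC3 to AAC2 and from -0.75 to -0.0050 for CYC7 to CYC1. With 2 libraries per group, small differences such as that of COX5A are not resolved.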
